A study of Sordaria macrospora with 14 samples.

Results

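The genes described here are those of Sordaria macrospora whose transcripts in fruiting bodies were kept in the Δasm2 strain but were low in the ΔSMAC_03952 strain. Sordaria macrospora is a self-fertile filamentous fungus. Its mycelium forms flask-shaped fruiting bodies, the perithecia, in which asci develop and shoot out ascospores. A rule of 4 conditions on read counts gave the set. Mean abundance in wild-type perithecia had to reach 10 CPM (counts-per-million of the library total). The mean in Δasm2 perithecia had to be at least 0.6 of the wild-type mean. The higher ΔSMAC_03952 perithecial library could be at most 1/3 of the lowest wild-type or Δasm2 perithecial library, and the Δspt3 mycelium libraries together had to hold more than 3 counts. Of 9869 gene models, 12 met the rule, and 1 of these was SMAC_03952 itself, the gene deleted in the strain. Members were therefore chosen from perithecial values, which are given below as a description without a test. The mycelium of wild type, Δasm2 and ΔSMAC_03952 was not used by the rule and was tested. The rule itself was set with earlier results of these data known.

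The data are bulk RNA-seq counts from 14 libraries in 7 groups, each with 2 biological replicates described as independent. Wild type and the strains deleted for asm2 and for SMAC_03952 were sampled as total sexual mycelium and as perithecia; the strain deleted for spt3 was sampled as mycelium alone. All strains had grown for 6 days at 25 °C on corn meal medium, mycelium in liquid and perithecia on solid medium, and plates with perithecia were treated with ethanol for 10 min before the perithecia were scraped off. Culture form and harvest therefore changed together with tissue. Library totals ran from 6383079 to 24029990 counts, and the ΔSMAC_03952 perithecia were the shallowest group, at 6383079 and 8673212 counts. In bulk RNA, fewer cells of a type and less RNA per cell cannot be told apart. The sources used here do not state how many perithecia each strain formed or at which stage, nor whether a deletion strain was 1 clone. They also do not pair asm2 and spt3 with identifiers of the table, so those deletions were not checked in the counts.

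Deletion strains are used in this fungus to ask which genes a regulator of fruiting-body formation is needed for. In budding yeast the protein named Spt3 is a subunit of the SAGA coactivator, which acetylates histones and helps to bring the TATA-binding protein to promoters; whether the S. macrospora genes act in the same way is not a matter of these data. The table and the RefSeq gene list hold identifiers without names or products, so no role can be given for any of the 12 genes, and they are ordered below by how they stood in mycelium.

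The 2 ratios that chose the genes are plotted for every gene with enough reads in wild-type perithecia. Of 7474 such genes, 61 stood at 1/3 or less in ΔSMAC_03952 perithecia. Among these 61 genes, 17 were kept at 0.6 or more in Δasm2, and 12 of the 17 also held more than 3 counts in Δspt3 mycelium. The ratio to the wild type in Δasm2 ran from 0.604 for SMAC_00005 to 5.35 for SMAC_07256. On the other axis the ratio ran from 0.0777 for SMAC_00005 to 0.332 for SMAC_07893. Thresholds passed close to a few genes, given here among those that met the other conditions. SMAC_07893, at 0.332, and SMAC_03952, at 0.303, lay just inside 1/3, while SMAC_03784, at 0.336, and SMAC_02071, at 0.359, lay just outside. For the ratio in Δasm2, SMAC_00005 at 0.604 and SMAC_07893 at 0.661 lay inside, and SMAC_09125 at 0.553 and SMAC_06880 at 0.508 outside. On the Δspt3 condition, SMAC_08684 lay just inside with 4 summed counts, and SMAC_07597 and SMAC_08399 just outside with 3 each. For the 10 CPM limit, SMAC_00005 (10.8 CPM) and SMAC_00321 (11.4 CPM) were the nearest members above it, and SMAC_08626 (5.42 CPM) and SMAC_06938 (4.78 CPM) the nearest below it among genes that met the other conditions.

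**Figure D1:**
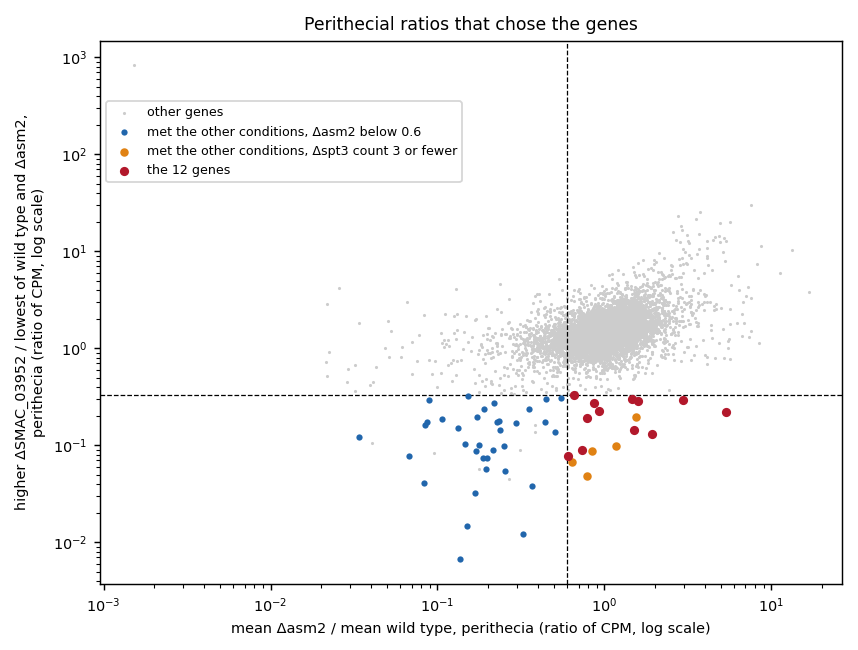
Each point is a gene with a mean of at least 10 CPM in wild-type perithecia; the x axis is the ratio of mean CPM in Δasm2 to wild-type perithecia and the y axis the ratio of the higher ΔSMAC_03952 library to the lowest wild-type or Δasm2 library, both on log scales, with dashed lines at 0.6 and 1/3. The 12 genes (red) lie in the lower right corner beside 5 genes with 3 or fewer counts in Δspt3 (orange), and 35 genes with a ratio under 0.6 in Δasm2 (blue) lie in the lower left; 1 gene with 0 counts in both ΔSMAC_03952 libraries is not drawn.

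In wild-type perithecia the genes differed widely in abundance. Per kilobase of transcript, SMAC_00022 stood at 442 ± 15.7 CPM per kb (mean ± SD, n = 2) and SMAC_05970 at 390 ± 87.8, and the libraries of these leaders overlapped. The next gene down was SMAC_03952, at 45.5 ± 7.22 CPM per kb, clear of both. SMAC_07893 (37.4 ± 7.57) and SMAC_07193 (37.2 ± 5.14) could not be ordered against it or against each other, since their libraries overlapped. SMAC_01101, at 30.8 ± 3.01 CPM per kb, and SMAC_07256, at 25.4 ± 0.868, followed; SMAC_01101 overlapped SMAC_07893 but not SMAC_07193, and SMAC_07256 overlapped neither neighbour in the order. SMAC_08928, SMAC_12949, SMAC_08684 and SMAC_00005 formed a lower tier between 9.77 and 13.6 CPM per kb in which each overlapped the next, and SMAC_00321 was the lowest at 3.36 ± 0.745. Transcript lengths ran from 805 bases for SMAC_07893 to 4048 bases for SMAC_03952. The median length was 1315 bases, against 1812 bases over all gene models with counts.

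The word perithecial describes where the genes were chosen, not a shared tissue pattern. In the wild type, 8 of the 12 genes stood higher in both perithecial libraries than in both mycelium libraries, against 37.4% of all genes tested, and 2 stood lower, against 27.3%. Largest was the ratio of SMAC_00321, whose mean was 7.28 times that of mycelium. SMAC_07193 followed with a ratio of 5.76 and SMAC_01101 with 4.59. SMAC_05970 ran the other way, with a perithecial mean at 17.3% of the mycelium mean, and SMAC_03952 stood at 77.3%. These ratios use the perithecial libraries of the rule and are descriptions. Against the wild type, Δasm2 perithecia stood higher for 6 genes (31% of all genes) and lower for 4 (25.8%). Between Δasm2 tissues, 6 genes stood higher in perithecia (43.6% of all genes) and 1 lower (26.4%). Between ΔSMAC_03952 tissues, 5 stood higher (45.2%) and 4 lower (28.3%). The rule set limits on the perithecial values of the 12 genes but not of all genes, so these shares are an unlike background.

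**Figure D2:**
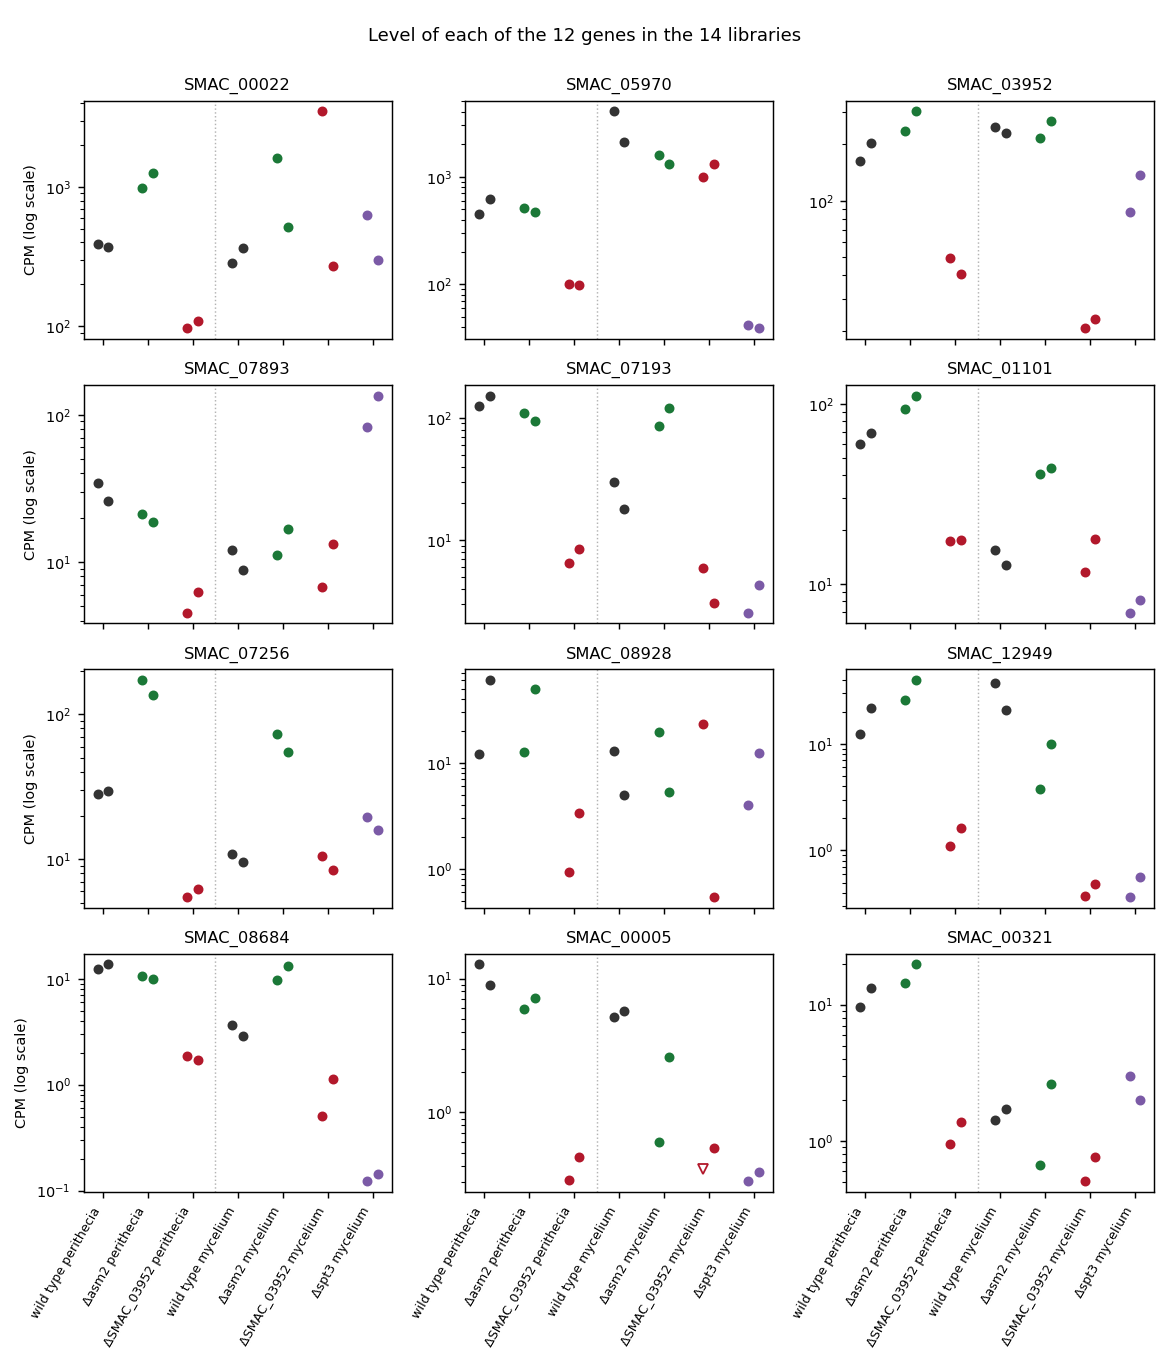
CPM on library totals (y axis, log scale) of each of the 12 genes in all 14 libraries, 2 points per group, with perithecia left and mycelium right of the dotted line; panels are ordered by level per kilobase in wild-type perithecia. Red points are ΔSMAC_03952, and the open triangle stands for 0 counts, drawn at the level of 3 counts. In perithecia the red points lie below all others in every panel, as the rule asked, while in mycelium they lie below the wild type in 7 panels.

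SMAC_03952 was examined first because it checks the strain label. Its perithecial level was 163 and 205 CPM in the wild type, 235 and 301 CPM in Δasm2, and 49.5 and 40.8 CPM in ΔSMAC_03952. In mycelium it was 247 and 230 CPM in the wild type, 216 and 267 CPM in Δasm2, and 20.8 and 23.4 CPM in the deletion strain. Both deletion-strain libraries lay far below the others in either tissue, though not at 0: 9.28% of the wild-type mean was left in mycelium and 24.5% in perithecia. In mycelium the gene fell by 3.36 on the log2 scale against the wild type (standard error 0.24, edgeR adjusted p = 5.02e-05), and in Δasm2 it did not pass the threshold (log2 change 0.07, standard error 0.22). The sources used here do not state which stretch of the gene model was removed, and the source of the reads that were left was not tested. As the deletion target it is no independent member, and beside the calls in each mycelium comparison the same is given for the other 11 genes.

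In mycelium, which the rule did not use for these strains, 6 of the 12 genes fell in ΔSMAC_03952 against the wild type and 0 rose by edgeR's quasi-likelihood test (adjusted p under 0.05 over 9499 genes). Of all genes tested, 6.64% were called lower and 4.13% higher. Without SMAC_03952 itself, 5 of 11 were lower, with a median log2 change of -1.15. Those 5 genes were SMAC_12949, SMAC_00005, SMAC_07193, SMAC_08684 and SMAC_05970. The other 6 genes had log2 fold changes from -1.15 to 2.58 and did not pass; SMAC_00022, the highest of them, passed by DESeq2 (log2 change 2.56, adjusted p = 0.0452) and was held up by 1 library, as described below. At an unadjusted p under 0.05 SMAC_00022 was the single gene on the higher side in edgeR. Without any model, both ΔSMAC_03952 libraries lay below both wild-type libraries for 7 genes (33.5% of all genes) and above for 0 (27.9%). The median log2 fold change of the 12 genes was -1.24, against 0.03 over all genes. The number of lower genes was 3 without wild-type mycelium replicate 1 and 4 without ΔSMAC_03952 mycelium replicate 1.

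SMAC_12949 stood at 37.1 and 20.7 CPM in the wild type, at 3.80 and 9.87 CPM in Δasm2, and at 0.378 and 0.487 CPM in ΔSMAC_03952, which is 3 and 9 counts. The 3 strains did not overlap, with Δasm2 between the others. Against the wild type the ΔSMAC_03952 libraries fell by 5.89 on the log2 scale (standard error 0.56, edgeR adjusted p = 3.02e-04). In Δasm2 it fell by 2.05 (standard error 0.42, edgeR adjusted p = 0.0137). That call ended with only the 4 libraries compared (edgeR adjusted p = 0.0511). It also ended without wild-type mycelium replicate 1 (log2 change -1.625) or Δasm2 mycelium replicate 1 (log2 change -1.563). The direct comparison put ΔSMAC_03952 below Δasm2 by a log2 difference of -3.84 (standard error 0.56, edgeR adjusted p = 0.00352; 0.0759 with only the 4 libraries compared). In perithecia the order of wild type and Δasm2 turned round. The wild type held 12.2 and 21.6 CPM, Δasm2 25.5 and 39.5 CPM, and ΔSMAC_03952 1.10 and 1.61 CPM. No RefSeq entry used here matched this identifier.

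SMAC_00005 lay close to the limits of 0.6 and 10 CPM in perithecia and fell in ΔSMAC_03952 mycelium. On the limit of 1/3 it was the farthest inside of the members, with a ratio of 0.0777. Wild-type perithecia held 12.7 and 8.93 CPM, those of Δasm2 5.93 and 7.15 CPM, and those of ΔSMAC_03952 0.313 and 0.461 CPM. The last values are 2 and 4 counts, together 0.146 to 0.867 CPM by an exact 95% Poisson interval for counting error only. Mycelium gave 5.12 and 5.71 CPM in the wild type, 0.604 and 2.60 CPM in Δasm2, and 0 counts and 10 counts (0.541 CPM) in ΔSMAC_03952. In the library with 0 counts, the floor of 3 counts stood at 0.378 CPM. All of the wild-type libraries lay above those of both deletion strains. The log2 change in ΔSMAC_03952 was -3.83 and passed the threshold, but missed it with only the 4 libraries compared (edgeR adjusted p = 0.0591) and without wild-type mycelium replicate 1 (edgeR adjusted p = 0.0549). In Δasm2 the log2 change of -1.82 (standard error 0.61) did not pass in edgeR, though it did by DESeq2 (adjusted p = 0.0396) and in edgeR without Δasm2 mycelium replicate 2 (adjusted p = 0.0321). The difference between the deletion strains did not pass (log2 difference -2.02, standard error 0.80). Without ΔSMAC_03952 mycelium replicate 2 the estimate rests on 0 counts and is no measure of size.

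SMAC_07193 moved in opposite directions in the deletion strains in mycelium. Its wild-type mycelium held 29.9 and 17.9 CPM, Δasm2 mycelium 85.3 and 121 CPM, and ΔSMAC_03952 mycelium 5.92 and 3.08 CPM. The 3 strains were fully apart, with Δasm2 above and ΔSMAC_03952 below the wild type. Against the wild type the gene rose in Δasm2 by 2.16 on the log2 scale (standard error 0.31, edgeR adjusted p = 0.00183) and fell by 2.39 in ΔSMAC_03952. The direct difference was -4.55 (standard error 0.36, edgeR adjusted p = 4.66e-05), and all 3 calls held under every alternative run. Perithecia gave another order, with 124 and 151 CPM in the wild type, 109 and 93.3 CPM in Δasm2, and 6.58 and 8.42 CPM in ΔSMAC_03952. Δasm2 perithecia thus stood slightly below the wild type, at 73.4% of its mean, and Δasm2 had about the same level in both tissues, with a perithecia to mycelium ratio of 0.983.

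SMAC_08684 showed the same arrangement at a lower level. In mycelium the wild type held 3.66 and 2.88 CPM, Δasm2 9.84 and 13.2 CPM, and ΔSMAC_03952 0.504 and 1.14 CPM. Again no strain overlapped another. The gene rose in Δasm2 by 1.86 on the log2 scale, and the edgeR adjusted p was 0.0576 and 0.0551 without wild-type mycelium replicates 1 and 2. It fell by 1.79 in ΔSMAC_03952, with an edgeR adjusted p of 0.128 without wild-type mycelium replicate 1 and 0.0542 without ΔSMAC_03952 mycelium replicate 1, and of 0.103 with only the 4 libraries compared. The difference between the deletion strains, -3.65, passed in every alternative run. Perithecia held 12.3 and 13.7 CPM in the wild type, 10.7 and 9.91 CPM in Δasm2, and 1.88 and 1.73 CPM in ΔSMAC_03952.

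SMAC_05970 was abundant in both tissues of the wild type and higher in mycelium, where culture form changed together with tissue. It stood at 4045 and 2103 CPM in wild-type mycelium, 1576 and 1307 CPM in Δasm2 mycelium, and 1004 and 1314 CPM in ΔSMAC_03952 mycelium. The deletion strains overlapped each other below the wild type. In ΔSMAC_03952 the log2 change was -1.32 and passed, but the gene missed the threshold without wild-type mycelium replicate 1 (log2 change -0.82, edgeR adjusted p = 0.257), with only the 4 libraries compared (edgeR adjusted p = 0.0981) and without ΔSMAC_03952 mycelium replicate 1 (-1.11, edgeR adjusted p = 0.0956). For Δasm2 the log2 change of -1.02 (standard error 0.31) did not pass in edgeR. It passed by DESeq2 (adjusted p = 0.0136), and in edgeR with length trends removed (adjusted p = 0.0437) and without wild-type mycelium replicate 2 (adjusted p = 0.036). The deletion strains did not differ past the threshold (log2 difference -0.30, standard error 0.31). In perithecia it stood at 448 and 617 CPM in the wild type, 515 and 470 CPM in Δasm2, and 100.4 and 98.0 CPM in ΔSMAC_03952.

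The deletion strains were then compared directly in mycelium, where the rule used neither set of libraries. By edgeR ΔSMAC_03952 was lower than Δasm2 for 6 of the 12 genes and higher for 0, against 2.6% lower and 0.863% higher over all genes. DESeq2 gave the same numbers of members, and its shares over all genes were not counted. None of the 12 was on the higher side at an unadjusted p under 0.05 by edgeR. Apart from SMAC_03952 the lower genes were SMAC_07193, SMAC_12949, SMAC_08684, SMAC_07256 and SMAC_01101. The median log2 difference of the 12 was -1.76, against 0.02 for all genes; without SMAC_03952, 5 of 11 were lower with a median of -1.50. Both ΔSMAC_03952 libraries lay below both Δasm2 libraries for 7 genes (21.6% of all genes) and above for 0 (23.8%). The number called stayed at 6 when any one of the 4 libraries was left out, and was 4 with only the 4 libraries compared.

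Against the wild type, Δasm2 mycelium had 4 of the 12 genes higher (3.45% of all genes) and 1 lower (2.61%). The 4 genes that rose were SMAC_07256, SMAC_07193, SMAC_08684 and SMAC_01101, and SMAC_12949 was the gene that fell. The deleted gene SMAC_03952 is not among them, so the same 4 and 1 were called of the other 11. DESeq2 called 4 higher and 3 lower, the added genes being SMAC_00005 and SMAC_05970. The shares above are from edgeR, and those of DESeq2 over all genes were not counted. The median log2 fold change of the 12 was 0.52, against -0.02 over all genes, and 0.59 for the 11. The Δasm2 and ΔSMAC_03952 comparisons share the wild-type mycelium libraries. Libraries lay apart from the wild type for 8 genes, 5 higher (24.5% of all genes) and 3 lower (30.3%). Without wild-type mycelium replicate 1, 3 genes were higher and 0 lower.

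SMAC_07256 was high in Δasm2. Wild-type mycelium held 10.8 and 9.5 CPM, Δasm2 mycelium 73.1 and 54.6 CPM, and ΔSMAC_03952 mycelium 10.6 and 8.44 CPM. The wild type and ΔSMAC_03952 overlapped, with Δasm2 far above both. It rose in Δasm2 by 2.72 on the log2 scale (standard error 0.27, edgeR adjusted p = 2.46e-04), and in ΔSMAC_03952 the change was -0.04 (standard error 0.26) and did not pass. ΔSMAC_03952 was lower than Δasm2 by a log2 difference of -2.75, past the threshold. Its perithecial levels were 28.1 and 29.5 CPM in the wild type, 173 and 135 CPM in Δasm2, and 5.48 and 6.23 CPM in ΔSMAC_03952. The gene was thus high in Δasm2 in both tissues, and ΔSMAC_03952 stood below the wild type in perithecia.

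SMAC_01101 had a like pattern with smaller differences. It stood at 15.4 and 12.7 CPM in wild-type mycelium, at 40.6 and 43.9 CPM in Δasm2 and at 11.6 and 17.6 CPM in ΔSMAC_03952. Its increase in Δasm2 was 1.64 on the log2 scale and passed, while ΔSMAC_03952 did not pass against the wild type (log2 change 0.14, standard error 0.23). The direct difference of -1.50 passed, and its edgeR adjusted p was 0.131 with only the 4 libraries compared. In perithecia the wild type held 60.1 and 69.0 CPM, Δasm2 93.9 and 111 CPM, and ΔSMAC_03952 17.2 and 17.4 CPM. ΔSMAC_03952 perithecia stood near the level of wild-type mycelium.

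The remaining 4 genes passed in none of the 3 comparisons among wild type, Δasm2 and ΔSMAC_03952 mycelium. SMAC_00321 held 1.41 and 1.72 CPM in wild-type mycelium, 0.664 and 2.60 CPM in Δasm2 and 0.504 and 0.757 CPM in ΔSMAC_03952. Its perithecia held 9.61 and 13.2 CPM in the wild type, 14.4 and 19.7 CPM in Δasm2 and 0.94 and 1.38 CPM in ΔSMAC_03952. Both ΔSMAC_03952 mycelium libraries lay below the wild type, with 4 and 14 counts, and the difference did not pass (log2 change -1.15, standard error 0.57).

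SMAC_07893 stood at 12.1 and 8.79 CPM in wild-type mycelium, 11.2 and 16.7 CPM in Δasm2 and 6.80 and 13.4 CPM in ΔSMAC_03952. All 3 groups overlapped (log2 change 0.06 in ΔSMAC_03952, standard error 0.35). Perithecia held 34.4 and 25.8 CPM in the wild type, 21.1 and 18.7 CPM in Δasm2 and 4.54 and 6.23 CPM in ΔSMAC_03952. Its low level in ΔSMAC_03952 was therefore seen in perithecia; whether the deletion acts differently in the tissues was not tested, because the rule used the perithecia.

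SMAC_08928 and SMAC_00022 had replicates that lay far apart. In wild-type perithecia SMAC_08928 stood at 12.2 and 60.4 CPM, in Δasm2 at 12.7 and 50.2 CPM and in ΔSMAC_03952 at 0.94 and 3.34 CPM. Its ΔSMAC_03952 mycelium held 23.1 and 0.541 CPM, against 12.9 and 4.95 CPM in the wild type and 19.4 and 5.31 CPM in Δasm2 (log2 change 0.39 in ΔSMAC_03952, standard error 1.18). All of these mycelium groups overlapped.

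SMAC_00022 stood at 387 and 368 CPM in wild-type perithecia, 981 and 1256 CPM in Δasm2 and 96.5 and 109 CPM in ΔSMAC_03952. Mycelium gave 282 and 362 CPM in the wild type, 1620 and 517 CPM in Δasm2, and 3497 and 270 CPM in ΔSMAC_03952. One ΔSMAC_03952 mycelium library thus lay far above the wild type and the other below it. The log2 change of 2.58 (standard error 0.86, edgeR adjusted p = 0.067) became -0.14 without ΔSMAC_03952 mycelium replicate 1 and 3.43 without replicate 2.

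**Figure D3:**
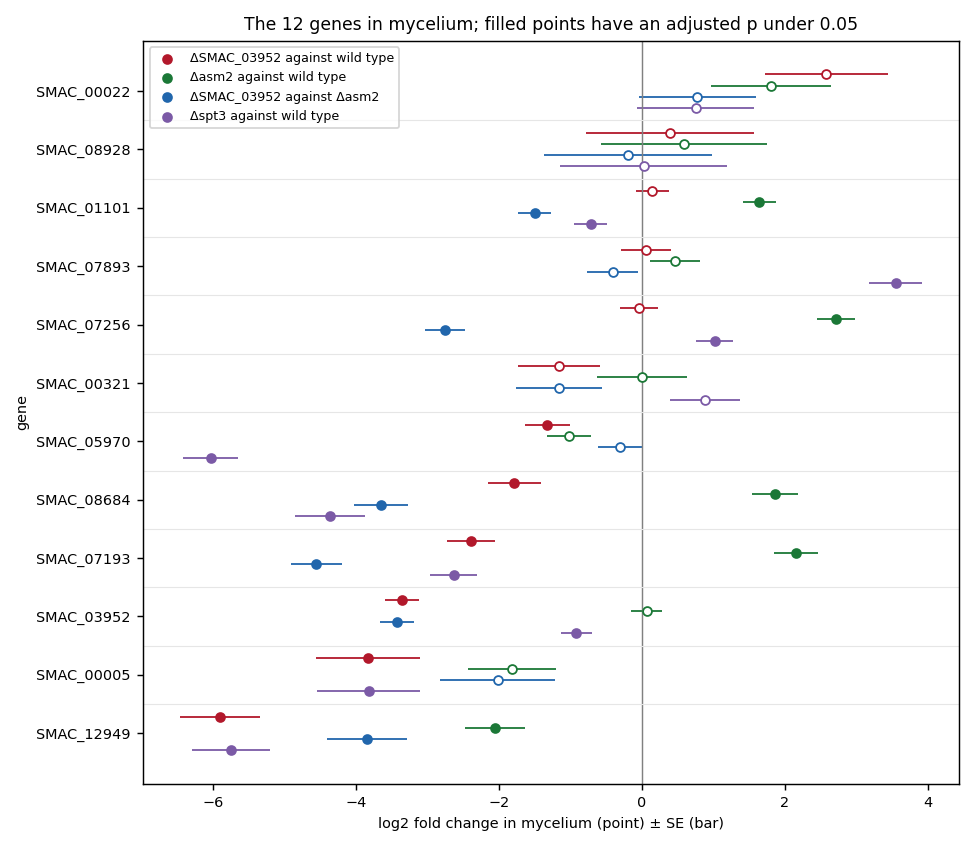
Log2 fold changes in mycelium (x axis, point) with their standard errors (bar) of the 12 genes (y axis) in 4 comparisons; filled points passed an adjusted p of 0.05 in edgeR. Red points (ΔSMAC_03952 against wild type) are filled for 6 genes, all to the left of 0; green points (Δasm2 against wild type) are filled for 4 genes to the right and 1 to the left.

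Δspt3 mycelium was used by the rule only as a floor of more than 3 counts, which removes genes that were nearly silent there, so the following numbers are cut off on the lower side. Of the 12 genes, 7 fell in Δspt3 against the wild type, where 30.2% of all genes did, and 2 rose, where 29.1% did. Without SMAC_03952, 6 of 11 fell and 2 rose. With length trends removed 5 of the 12 fell and 3 rose, and the shares of all genes under that setting were not counted. Libraries lay apart for 7 genes on the lower side (43.9% of all genes) and 3 on the higher (33.3%). SMAC_05970 fell from 4045 and 2103 CPM to 42.1 and 39.2 CPM (log2 change -6.03, standard error 0.38, edgeR adjusted p = 1.28e-07). SMAC_12949 fell to 0.367 and 0.57 CPM (log2 change -5.74, standard error 0.54, edgeR adjusted p = 2.81e-06). Both lay clear of the wild type. The other genes that fell were SMAC_08684, SMAC_00005, SMAC_07193, SMAC_03952 and SMAC_01101, with log2 changes from -4.36 to -0.72. In Δspt3 mycelium SMAC_08684 held 2 and 2 counts, SMAC_00005 5 and 5, and SMAC_12949 6 and 8. The sizes of these changes therefore rest on few reads. SMAC_01101 also missed the threshold without wild-type mycelium replicate 1 or either Δspt3 replicate (edgeR adjusted p from 0.0536 to 0.0886) and with only the 4 libraries compared (0.0783). With length trends removed, SMAC_03952 and SMAC_01101 missed the threshold (edgeR adjusted p = 0.118 and 0.105).

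SMAC_07893 rose in Δspt3 to 83.1 and 135 CPM, above every other library of the series, an increase of 3.55 on the log2 scale (standard error 0.37, edgeR adjusted p = 6.67e-06). SMAC_07256 rose to 19.7 and 16.0 CPM (log2 change 1.02, standard error 0.26, edgeR adjusted p = 0.0047; 0.0662 without Δspt3 mycelium replicate 1). SMAC_00022, SMAC_00321 and SMAC_08928 did not pass, except that SMAC_00321 did with length trends removed (log2 change 1.40, edgeR adjusted p = 0.0234). Δspt3 and ΔSMAC_03952 are compared with the same wild-type libraries; for the 5 genes other than the deletion target that fell in ΔSMAC_03952 mycelium, the log2 changes in Δspt3 were -6.03 for SMAC_05970, -5.74 for SMAC_12949, -4.36 for SMAC_08684, -3.82 for SMAC_00005 and -2.63 for SMAC_07193.

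Other genes met all but 1 of the conditions. For 5 of them, SMAC_07597, SMAC_08399, SMAC_09044, SMAC_09196 and SMAC_09337, Δspt3 mycelium held 3 or fewer counts. In ΔSMAC_03952 mycelium 3 of these 5 were lower than in the wild type, against 6.64% of all genes. Their log2 fold changes were -4.17 for SMAC_07597, -4.74 for SMAC_08399 and -3.87 for SMAC_09044. A second group of 35 genes stood below 0.6 of the wild type in Δasm2 perithecia. Among these 35 genes, 29 (82.9%) fell in ΔSMAC_03952 mycelium against the wild type, beside 6 of the 12 members and the same 6.64% of all genes. In Δasm2 mycelium 26 of the 35 were lower and 0 higher, beside 1 lower and 4 higher of the 12 members. Over all genes 2.61% were lower and 3.45% higher in Δasm2 mycelium. Between the deletion strains in mycelium, ΔSMAC_03952 was lower for 4 of the 35 genes and 2 of the 5 genes, beside 5 of the 11 members other than SMAC_03952 and 2.6% of all genes. Whether the shares differ between the groups was not tested.

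Position was looked up by gene order in the RefSeq annotation ASM3387043v1, which matched 11 of the 12 identifiers; it may be another build than the counts used, and no coordinates are given. No member lay next to another. Of the 22 neighbouring entries 18 had counts and 16 were tested, and the rule did not choose these genes. In ΔSMAC_03952 against wild-type perithecia 3 of the 16 tested neighbours were lower, against 11.2% of all genes, and 0 higher, against 6.24%. DESeq2 called the same number lower and 2 higher, and its shares over all genes were not counted. The same perithecial libraries chose the members, so these calls are not independent of that choice. Whether the shares differ was not tested, and the call of SMAC_07257 was lost in several alternatives, given below.

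SMAC_07194, next to SMAC_07193, stood at 211 and 270 CPM in wild-type perithecia and at 4.39 and 3.11 CPM in ΔSMAC_03952 perithecia (log2 change -6.11, standard error 0.57, edgeR adjusted p = 1.55e-05). It was no member because Δasm2 perithecia held 27.8 and 14.8 CPM, a ratio of 0.0884. In mycelium it fell by 2.67 in ΔSMAC_03952 (standard error 0.48, edgeR adjusted p = 0.00855) and did not pass in Δasm2 (log2 change -0.10, standard error 0.44), where SMAC_07193 rose. In perithecia SMAC_07193 was low in ΔSMAC_03952 and kept in Δasm2 because the rule required both. In mycelium both neighbours were called lower in ΔSMAC_03952, and in Δasm2 only SMAC_07193 was called, as higher. The difference between the neighbours was not tested.

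SMAC_08929, next to SMAC_08928, went from 15.1 and 10.6 CPM in wild-type to 0.783 and 0.346 CPM in ΔSMAC_03952 perithecia (log2 change -4.68, standard error 0.56, edgeR adjusted p = 1.94e-04), with 4.79 and 5.05 CPM in Δasm2. SMAC_07257, next to SMAC_07256, fell from 37.7 and 57.7 to 29.1 and 33.4 CPM (log2 change -0.70, standard error 0.21, edgeR adjusted p = 0.0408), and missed the threshold on library totals without scaling factors (edgeR adjusted p = 0.139) and without either ΔSMAC_03952 replicate or wild-type replicate 2 (edgeR adjusted p from 0.182 to 0.251). The sources used here do not state how reads were assigned to strands and to overlapping ends, so reads shared between neighbours cannot be told apart from their own.

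**Figure D4:**
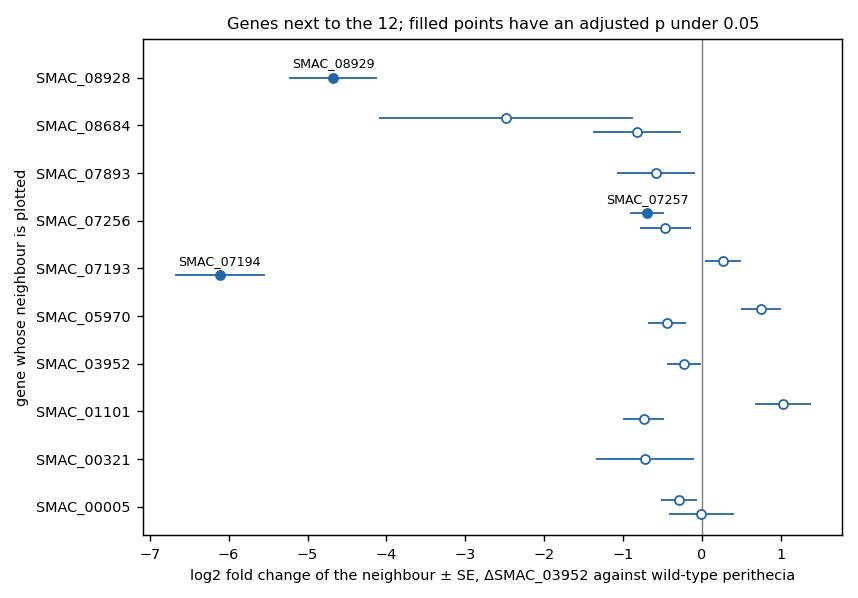
Log2 fold change in ΔSMAC_03952 against wild-type perithecia (x axis, point, with its standard error as a bar) of the genes that lie next to a member in RefSeq order, set beside the member's name (y axis). Filled points passed an adjusted p of 0.05 in edgeR; SMAC_07194 and SMAC_08929 lie at -6.11 and -4.68, and the other tested neighbours lie between -2.49 and 1.03.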

How the data were processed

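Raw read counts per transcript model for 14 libraries were taken as deposited, per the file headers; they are whole numbers with unequal totals. The submitters' processing notes name DESeq2; for the aligner, counting program, genome build and strand handling: not given in the sources used here. The table has 10014 rows, of which 145 second transcripts hold 0 counts and were left out, leaving 9869 gene models; identifiers are printed without their transcript suffix. The deposited transcript length served for levels per kilobase.

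CPM values are on library totals. Counts were fitted in R 4.3.3 with edgeR 4.0.16 (filterByExpr with 7 groups, 9499 genes kept, TMM factors, 1 mean per group, glmQLFit and glmQLFTest, 7 residual degrees of freedom), with Benjamini-Hochberg adjustment over all genes and a threshold of 0.05; fold changes are on the TMM scale, and a standard error is the absolute log2 change divided by the square root of F. The method was also run on simulated data in which few genes changed, in 1 group at a time, unlike Δspt3 mycelium here. Its outcome is not given, and no result rests on it. DESeq2 1.42.0, other scalings, no filter, fewer libraries, a replicate block and a length correction were alternatives. Shares of all genes called are from the main edgeR fit and were not counted for the alternatives. Over all genes tested, log2 changes in ΔSMAC_03952 mycelium fell with transcript length (Spearman -0.347 against wild type, -0.335 against Δasm2). With length trends removed, 6 members were still lower than in the wild type. The log2 change became -2.86 for SMAC_03952 and -1.98 for SMAC_07193, which are long, and -4.02 for the shorter SMAC_00005. Replicates differed by more than sampling noise in every group (chi-square per gene from 12.0 to 128), so each was counted. Intervals and floors cover counting error only.

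The members and lists were chosen with earlier results of these data known. The rule for named genes took the most abundant and most lowered members, those called in mycelium, those nearest each threshold and SMAC_03952, which together cover all 12; without product names, standard error and adjusted p together are given for at most 2 called members per direction and comparison. The neighbours, tested in perithecia, and the alternative without SMAC_03952 were added after seeing the data. RefSeq matched 9531 gene models and gave 0 names other than locus tags, so planned features of products, proteins and promoters were not used here, and no sequence is printed.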

Additional observations from a re-analysis of the deposited data

Results flagged for a closer look

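The effects of the 2 deletions in mycelium differed for 6 of the 12 genes by the direct edgeR comparison of ΔSMAC_03952 with Δasm2. All 6 were lower in ΔSMAC_03952, against 2.6% of all genes lower and 0.863% higher. Without SMAC_03952 it was 5 of 11. The log2 differences were -1.50 for SMAC_01101, -3.43 for SMAC_03952, the deleted gene, -4.55 for SMAC_07193, -2.75 for SMAC_07256, -3.65 for SMAC_08684 and -3.84 for SMAC_12949. SMAC_07193 and SMAC_08684 also rose in one strain and fell in the other against the wild type.

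For 3 genes the Δasm2 libraries lay on opposite sides of the wild type in the tissues. These differences were not tested, since the rule used the perithecia. The share of all genes with such a reversal was not counted. The ratio of Δasm2 to wild type was 4.30 in mycelium and 0.734 in perithecia for SMAC_07193, and 3.53 and 0.792 for SMAC_08684. For SMAC_12949 it was 0.237 in mycelium and 1.92 in perithecia.

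For 4 genes the tissues stood in opposite order in the wild type and in ΔSMAC_03952, also not tested. The rule required low ΔSMAC_03952 perithecia, which by itself lowers the perithecia to mycelium ratio in that strain. Here too the share of all genes with such a reversal was not counted. The ratio of perithecia to mycelium was 0.0547 in ΔSMAC_03952 and 1.17 in the wild type for SMAC_00022, whose ΔSMAC_03952 mycelium replicates differed widely. It was 0.615 and 2.83 for SMAC_07256, and 0.534 and 2.88 for SMAC_07893. For SMAC_03952, the deleted gene, it was 2.04 in ΔSMAC_03952 and 0.773 in the wild type.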

How the results depend on the processing

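Of 26 calls of a gene in a mycelium comparison, 16 held in every alternative run. The number of the 12 genes called in ΔSMAC_03952 against wild-type mycelium was 6; it was 3 with only the 4 libraries compared, a fit with fewer residual degrees of freedom, and between 3 and 7 with 1 library left out, lowest without wild-type replicate 1. For Δasm2 against wild type it was 5, 7 by DESeq2, and 3 to 6 with 1 library left out. Between the deletion strains it was 6, and 4 with only the 4 libraries compared. Values that turned sign belonged to genes not called in that comparison, and the cause was not tested. SMAC_07893 in ΔSMAC_03952 mycelium became -0.095 with length trends removed and -0.0297 on library totals. SMAC_00321 in Δasm2 became -0.0060 with RLE factors, -0.0353 on library totals and -0.0382 with a replicate block. SMAC_08928 in Δspt3 became -0.0264 by DESeq2, -0.0308 with RLE factors, -0.126 on library totals and -0.00351 with only the 4 libraries compared. With 1 library left out, log2 changes of uncalled genes that turned sign in ΔSMAC_03952 against wild type ranged from -0.14 to 3.43 for SMAC_00022, -0.28 to 0.44 for SMAC_01101, -0.15 to 0.053 for SMAC_07256, -0.62 to 0.47 for SMAC_07893 and -3.90 to 1.37 for SMAC_08928. In Δasm2 against wild type they ranged from -1.13 to 0.71 for SMAC_00321, -0.042 to 0.14 for SMAC_03952 and -0.76 to 1.39 for SMAC_08928. Between the deletion strains they ranged from -1.94 to 1.89 for SMAC_00022, -1.06 to 0.032 for SMAC_07893 and -4.48 to 1.11 for SMAC_08928, and in Δspt3 from -0.073 to 1.27 for SMAC_00022 and -0.84 to 0.78 for SMAC_08928. A replicate block gave 6, 5, 6 and 9 called genes in the 4 comparisons, the numbers without it. The labels do not tie equal numbers together, and deviations of same-numbered libraries correlated between -0.318 and 0.345 over group pairs. With TMM-scaled sizes in the rule, 14 genes met it, 11 of them members; SMAC_00005 left and SMAC_02071, SMAC_03784 and SMAC_08527 joined. Without the Δspt3 condition 17 met it. With only the 4 libraries compared, ΔSMAC_03952 against Δasm2 gave no value for SMAC_00005 and SMAC_00321, which the filter on low counts removed.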
